A study of Drosophila melanogaster with 3 samples.

Results

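The cell death genes described here are *p53*, the IAP antagonists *rpr*, *hid*, *grim* and *skl*, the apoptosome and caspase genes *Dark*, *Dronc* and *Drice*, and the basic leucine zipper genes *Xrp1* and *Irbp18*. They were chosen by symbol, and all 10 were found among the 17896 genes of the deposited count table. RNA came from whole third-instar larvae at the wandering stage, homozygous for the null allele *CycC Y5*. *CycC* encodes cyclin C, which partners the kinase CDK8 in the Mediator complex. The allele was kept on an *FRT82B* chromosome over a balancer carrying *Tb*, from which homozygous larvae were told apart, and had been outcrossed to *w1118*. There were 3 libraries, each from a pool of 10 larvae, and maternal cyclin C carries such larvae to the pupal stage. Libraries of the *w1118* control and of *Cdk8 K185* larvae are not used here. Every value is thus a level in the mutant, and none is a change against wild type.

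In flies, as in mammals, p53 is a transcription factor that responds to DNA damage. Its known fly targets include *rpr*, *skl* and *Xrp1*. The proteins Reaper, Hid, Grim and Sickle bind inhibitors of apoptosis (IAPs) such as Diap1 and relieve caspases from them. Freed Dronc, an initiator caspase, is activated on the apoptosome built by the adaptor Dark, and cleaves Drice, an effector caspase. Xrp1 and Irbp18 pair with each other through their leucine zippers, and the pair is known for its role in the loss of cells with too little ribosomal protein and in DNA repair. In wandering larvae, programmed death of the salivary glands and other larval tissues still lies ahead, and *rpr* and *hid* are among the genes induced by ecdysone when it comes.

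The libraries held 10222639, 10179342 and 12146443 counts over genes and transposon families. *CycC* had 0 counts in every library, with 999 of its 1142 exon bp outside other genes, and 0 counts allow up to 3, or 0.293, 0.295 and 0.247 CPM (counts in 1000000 of the library total), for counting error only. Nothing in the labels says that larvae of different pools came from separate cultures, so the spread between libraries may in part be technical. Markers of salivary gland, fat body, muscle, midgut and hemocytes were counted in every library. Of the neuronal markers, *nSyb* had 253, 266 and 223 counts and *Syt1* had 1335, 1326 and 2243. The third, *elav*, had 1, 0 and 1 counts, and only 200 bp of its exons lie outside other genes.

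How the reads were assigned to genes bears on which of the members could be measured. The coordinates of all 10 are the same in the BDGP6.54 annotation, and the listed length is the whole span of the gene, introns included. Of the 1796 genes in the table that lie inside a gene on the opposite strand only, all 3 libraries had 0 counts for 100%. For comparison, among 9227 genes without any overlap the share at 0 was 14.6%. A 0 at such a nested gene is therefore not a measure of its expression, and bases shared with another gene can have gone uncounted. *Xrp1*, *rpr*, *hid*, *skl*, *Dronc* and *Drice* overlap no other listed gene. The remaining 4 share from 45.7% of their span (*Dark*) to all of it (*Irbp18*).

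**Figure D1:**
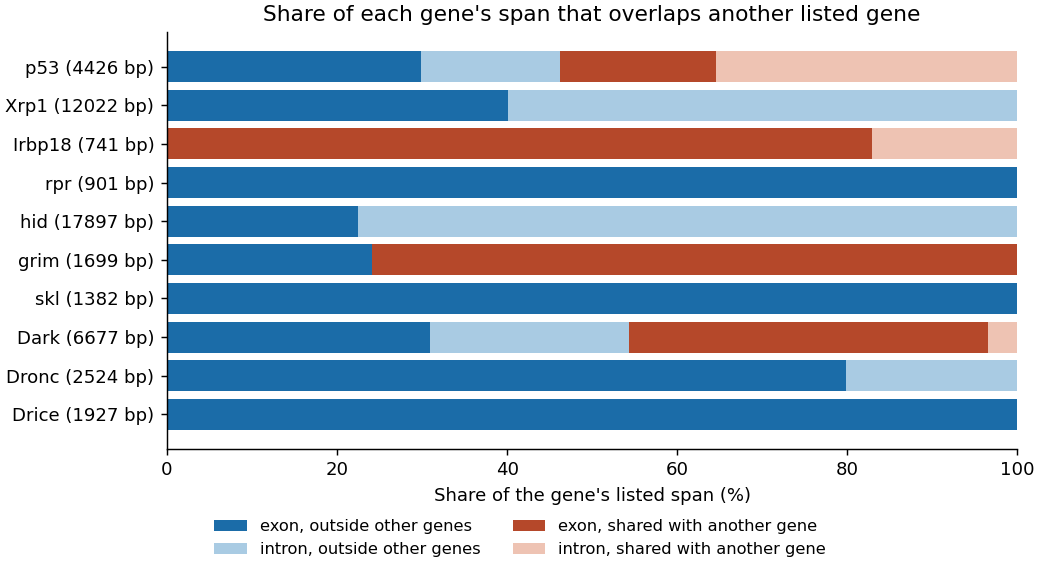
Make-up of the listed span of each gene, in percent of its length in bp, divided into exons and introns inside and outside the span of any other listed gene (BDGP6.54 exons). *Irbp18* has no base outside another gene and *grim* has 24.1% of its exon length there, whereas 6 genes overlap no other.

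*Xrp1* was by far the most counted member. It had 11463, 9871 and 10773 counts in libraries 1, 2 and 3, which is 993 ± 119 CPM (SD, n = 3). The gene (FBgn0261113) is on the plus strand of chromosome 3R, from 18914968 to 18926989, and has 7 annotated transcripts. Per kb of exons it stood at 206 ± 24.6 CPM (SD, n = 3), a level above that of 96.8% of the 11873 protein-coding genes with at least 200 bp of exon outside other genes, each taken per kb of those unshared bases. Exons make up 40.1% of its span, and reads on introns may be among its counts.

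Its partner *Irbp18* (FBgn0036126, 3L from 11097446 to 11098186, minus strand) was listed at 0 in all 3 libraries. The whole 741 bp of its span lies inside *CG33947*, which runs on the opposite strand from 11096496 to 11098556 and had 45, 43 and 45 counts. The level of *Irbp18* could thus not be read from this table, and no ratio of *Xrp1* to *Irbp18* was formed.

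*p53* (FBgn0039044) was counted at a modest level. The 3 libraries held 112, 122 and 97 counts, or 10.3 ± 2.08 CPM (SD, n = 3). The gene lies on 3R from 23049657 to 23054082 on the minus strand. It shares 53.8% of its span with 2 genes on the opposite strand: the gustatory receptor gene *Gr94a* lies wholly inside it, and *asRNA:CR46089* covers 1167 bp of it. Both were listed at 0 in every library. Of the 2136 bp of *p53* exons, 1324 bp lie outside these genes. The level was 4.83 ± 0.97 CPM per kb (SD, n = 3) over all its exons and 7.79 ± 1.57 CPM per kb (SD, n = 3) over the unshared ones. On the latter scale 46.8% of the 11873 coding genes were lower.

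The 4 IAP antagonists lie in a row on the minus strand of 3L, *hid*, *grim*, *rpr* and *skl*, over 272198 bp. *hid* (FBgn0003997, 18167745 to 18185641) had 312, 327 and 223 counts, or 27.0 ± 7.53 CPM (SD, n = 3). Library 3 was the lowest, and libraries 1 and 2 lay close together. Only 22.5% of its 17897 bp are exons.

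*rpr* (FBgn0011706, 18397535 to 18398435) had 70, 92 and 82 counts, or 7.55 ± 1.29 CPM (SD, n = 3). Its single exon has 901 bp, the whole of its span. Per kb of exons *rpr* stood at 8.37 ± 1.44 CPM (SD, n = 3) and *hid* at 6.72 ± 1.87 CPM (SD, n = 3), above 48.4% and 43.7% of the coding genes. The levels of these inducers of death thus lay near the middle of coding genes, although the tissues of a whole larva cannot be told apart.

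*skl* (FBgn0036786, 18438561 to 18439942), the gene for Sickle, was low, with 17, 28 and 28 counts, or 2.24 ± 0.547 CPM (SD, n = 3). The 95% Poisson interval of the 17 counts in library 1 ran from 9.90 to 27.2 counts, and that of the 28 counts from 18.6 to 40.5, so the libraries overlapped within counting error. *grim* (FBgn0015946, 18302719 to 18304417) had 2, 0 and 3 counts, 5 in all (95% Poisson interval 1.62 to 11.7 for the sum). Its single exon shares 75.9% of its length with *asRNA:CR45974* on the opposite strand and *lncRNA:CR45975* on its own strand, both at 0, which leaves 409 bp. At this depth *grim* was at the limit of detection over those bases, and its level over the remainder was not measured.

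Per kb of exons the caspase genes stood well above the IAP antagonists. *Drice* (FBgn0019972, 3R from 29799658 to 29801584, plus strand) had 1280, 1284 and 1191 counts, or 116 ± 16.0 CPM (SD, n = 3). *Dronc* (FBgn0026404, 3L from 9968479 to 9971002, plus strand) had 839, 1003 and 781 counts, or 81.6 ± 17.1 CPM (SD, n = 3), highest in library 2. Per kb of exons *Drice* was at 60.4 ± 8.28 CPM (SD, n = 3), above 89.7% of the coding genes, and *Dronc* at 40.5 ± 8.50 CPM (SD, n = 3), above 84.6% of them.

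Counts of the adaptor *Dark* (FBgn0263864, 2R from 17020027 to 17026703, plus strand) were lower, at 168, 206 and 172, or 16.9 ± 3.07 CPM (SD, n = 3). Its 3′ part is shared with *asRNA:CR44390* on the opposite strand, which had 0 counts and covers 3052 bp of it. The level of *Dark* was 3.47 ± 0.63 CPM per kb of exons (SD, n = 3), and 8.21 ± 1.49 CPM per kb (SD, n = 3) over the 42.2% of exon length outside that gene.

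**Figure D2:**
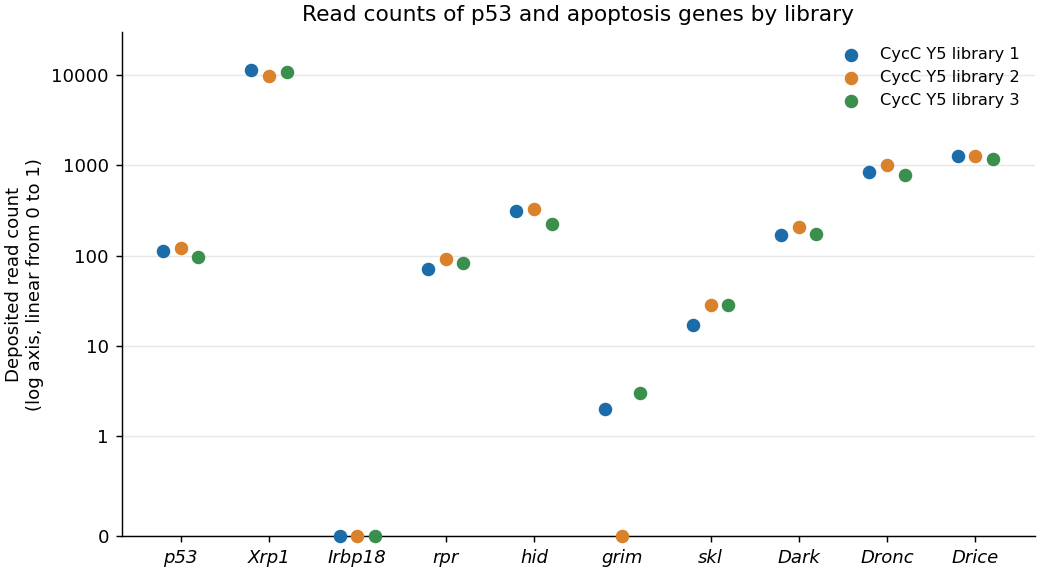
Deposited read counts (log axis, linear between 0 and 1) of the 10 genes in the 3 *CycC Y5* libraries, 1 point per library. *Xrp1* lies between 9871 and 11463 counts, the caspase genes *Dronc* and *Drice* between 781 and 1284, and *Irbp18* at 0.

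Levels of different genes were compared per kb of exons and within each library, where the library size drops out. The 8 members with counts in every library ranked in the order *Xrp1*, *Drice*, *Dronc*, *rpr*, *hid*, *p53*, *Dark* and *skl*. *Xrp1* exceeded *Drice* by a log2 ratio of 1.77 ± 0.13 (SD, n = 3), though by only 0.45 per kb of listed span. *Drice* exceeded *Dronc* by 0.59 ± 0.15 (SD, n = 3), and between *Dronc* and *rpr* lay the largest step, 2.27 ± 0.17 (SD, n = 3). These steps were each larger than the spread between libraries.

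Below them, *rpr* and *hid* were not separated. Their log2 ratio was 0.00, 0.33 and 0.71 in libraries 1, 2 and 3, a mean of 0.35 against an SD of 0.36. *hid* exceeded *p53* by 0.46 ± 0.15 (SD, n = 3), *p53* exceeded *Dark* by 0.47 ± 0.12 (SD, n = 3) and *Dark* exceeded *skl* by 1.11 ± 0.35 (SD, n = 3). Both steps around *p53* turned with the length used. Per kb of exons outside other genes, a measure chosen after seeing the data, the log2 ratio was -0.23 for *hid* to *p53* and -0.083 for *p53* to *Dark*, and that of *Dark* to *skl* grew to 2.36, so that *rpr*, *Dark*, *p53* and *hid* all lay between 6.72 and 8.37 CPM per kb. Per kb of listed span *hid* fell to the lowest place, at 1.51 ± 0.42 CPM per kb (SD, n = 3).

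Among partners in the pathway, *Dronc* exceeded *Dark* by a log2 ratio of 3.54 ± 0.07 (SD, n = 3), the steadiest of the ratios. Per kb of unshared exons this ratio was 2.30 ± 0.07 (SD, n = 3), since 42.2% of the exon length of *Dark* is unshared. *rpr* exceeded *skl* by 2.39 ± 0.25 (SD, n = 3), and *p53* lay below its target *Xrp1*, at a log2 ratio of -5.43 ± 0.24 (SD, n = 3), or -4.74 ± 0.24 (SD, n = 3) per kb of unshared exons. In each of the 10 pairs compared the sign was the same in 3 of 3 libraries (exact two-sided sign-flip permutation test, p = 0.25 for each and 0.25 after Benjamini-Hochberg adjustment over the 10 pairs, the smallest p that 3 libraries allow).

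**Figure D3:**
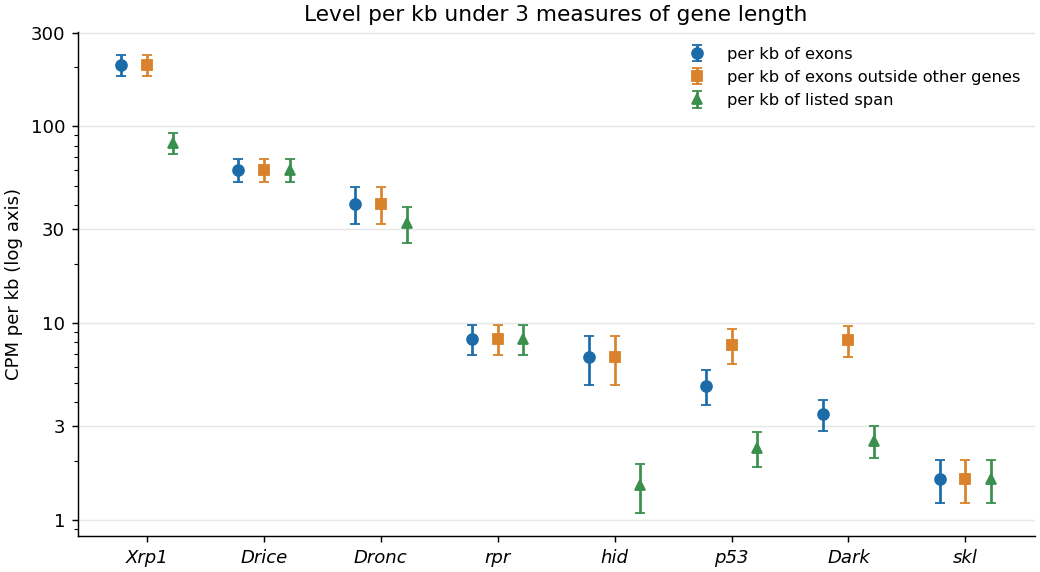
Mean CPM per kb (log axis) of the 8 genes with counts in every library, with the SD over 3 *CycC Y5* libraries, under 3 measures of gene length. *Xrp1*, *Drice*, *Dronc* and *rpr* keep their places under each measure, whereas the order of *hid*, *p53*, *Dark* and *skl* changes with it.

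Whether the members differed between pools of the same genotype was tested with a chi-square test of homogeneity on library sizes scaled by the trimmed mean of M values (TMM). It compares libraries, not conditions. The test was made for features with at least 10 counts in every library, which 8 members had. *Xrp1*, *hid* and *Dronc* varied by more than counting noise, 3 of 8 members (Benjamini-Hochberg adjusted p over all features tested), beside 39.4% of the 9898 features tested, so the share of members called lay near the background. The adjusted p was 3.0e-31 for *Xrp1*, 9.3e-05 for *hid* and 5.8e-06 for *Dronc*. *Drice* (adjusted p = 0.19), *Dark* (0.22), *skl* (0.33), *p53* (0.39) and *rpr* (0.40) did not pass.

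A call did not always go with a larger ratio. On the TMM scale the highest library exceeded the lowest 1.18-fold for *Xrp1*, which was called at 9871 to 11463 counts, and 1.63-fold for *skl*, which was not called at 17 to 28. The same ratio was 1.45 for *hid*, 1.27 for *Dronc* and 1.08 for *Drice*, the steadiest member by this measure. The median of this ratio was 1.26 over the 8 members and 1.22 over all tested features. The coefficient of variation fitted per gene by edgeR ran from 0.130 for *Dark* to 0.187 for *skl*, beside a median of 0.142 over all tested features, and 3 of the 8 members lay below that median. The fit draws each value toward those of other genes, so the values do not rank the members by their own spread. For *Xrp1* it gave 0.166, and DESeq2's dispersion gave 0.120.

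*hid* was lower in library 3, by a log2 ratio of -0.50 to library 1 (adjusted p = 4.6e-04) and -0.54 to library 2 (adjusted p = 9.4e-05), and libraries 1 and 2 differed by 0.04 (adjusted p = 0.86). *Dronc* was higher in library 2, at 0.23 over library 1 (adjusted p = 0.0051), while library 3 lay 0.35 below library 2 on the log2 scale, at -0.35 (adjusted p = 2.9e-06). *Xrp1* was lowest in library 2, at -0.24 to library 1 (adjusted p = 1.2e-31), and library 3 lay above it by 0.14 (adjusted p = 8.0e-11). This order holds on the TMM scale, whereas with total counts the log2 ratio of library 3 to 2 was -0.13 and library 3 was the lowest for *Xrp1*. Between libraries 1 and 2, 2 members were called (16.4% of all features), between 1 and 3 also 2 (32.0%), and between 2 and 3, 3 members (30.2%). The median log2 ratio over the 8 members was 0.17 for library 2 to 1, -0.11 for 3 to 1 and -0.20 for 3 to 2, beside 0.0020, 0.0059 and -0.011 over all tested features.

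The calls for *hid* and *Dronc* each rested on 1 library. Without library 3 *hid* did not vary beyond counting noise (adjusted p = 0.87, range over 8 alternatives 1.5e-10 to 0.87). Its coefficient of variation went from 0.170 to 0.0962. That fall was not particular to *hid*, since the coefficient fell for all 8 members without library 3, as from 0.134 to 0.0993 for *Drice*. Without library 2 *Dronc* was not called (adjusted p = 0.23, range 2.6e-17 to 0.23). *Xrp1* was called under each alternative, with adjusted p from 3.4e-67 to 1.2e-06. With total counts in place of TMM, 6 of 8 members were called, *p53*, *Dark* and *Drice* among them, but so were 5950 of the 9898 features (60.1%), and the median feature itself lay at a log2 ratio of -0.23 for library 3 to 1. On that scale 5 members differed between libraries 1 and 3, beside 50.6% of all features, and 6 between 2 and 3, beside 55.8%.

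Tissue markers differed between the same libraries. The summed level of the 4 fat body genes (*Lsp1alpha*, *Lsp1beta*, *Lsp2*, *Fbp1*) was 25922, 23404 and 48805 CPM, and that of 3 muscle genes (*Mhc*, *Act57B*, *Mlc2*) was 3101, 3775 and 7297 CPM. The summed level of 5 salivary gland genes was 6117, 2691 and 3682 CPM, and *Sgs4*, nested in another gene, was at 0. The 4 genes of imaginal discs and proliferating cells summed to 273, 269 and 209.7 CPM. On the TMM scale the median log2 ratio of library 3 to 1 was 0.91 for fat body, 1.98 for muscle, -0.45 for salivary gland, -0.22 for hemocytes and -0.16 for discs and proliferating cells, beside -0.50 for *hid*. For the 2 neuronal markers tested this median was 0.27, but *Syt1* was higher and *nSyb* lower in library 3 than in library 1. For midgut it was 0.043, with *betaTry* lower and the other genes higher. The part of tissue make-up in the ratios of *hid* and *Dronc* was not tested. In RNA of whole larvae, fewer cells of a type and less RNA per cell cannot be told apart.

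**Figure D4:**
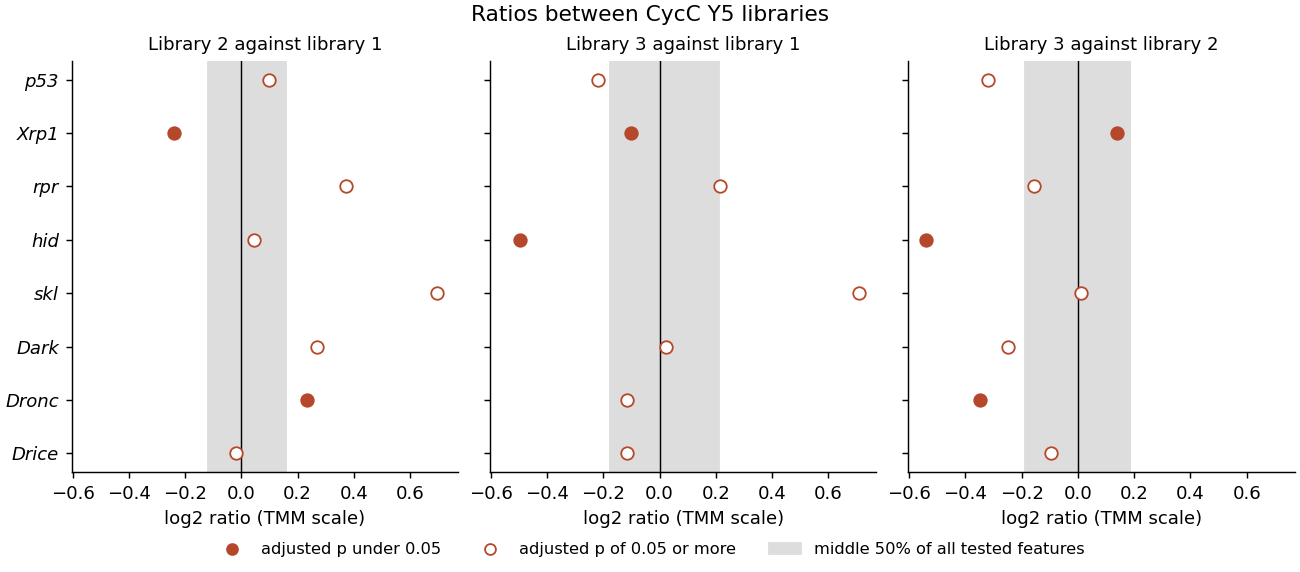
Log2 ratios between *CycC Y5* libraries on the TMM scale for the 8 genes tested, with the middle 50% of the 9898 tested features in grey. Filled points have an adjusted p under 0.05. *hid*, which is called, and *p53*, which is not, lie left of the grey band in both comparisons with library 3. *skl*, at few counts, and *rpr* lie right of it in both comparisons with library 1 without being called.

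The wider death and damage-response machinery was read from lists of 55 genes, of which 54 were matched. Of these 51 could be tested, and 23, or 45.1%, varied between libraries, beside the 39.4% of all features. *Corp*, a target and antagonist of p53, and the effector caspase gene *Dcp-1* have no exon base outside other genes and were listed at 0. Thus neither was measured, and the caspase list rests on the other 4 genes. Among these *Decay* was the highest, at 85.0 ± 6.35 CPM per kb of exons (SD, n = 3), and *Damm* the lowest, at 10.1 ± 2.58 CPM per kb (SD, n = 3). *Damm*, with 219, 256 and 180 counts, and *Dredd*, the caspase of the immune response, with 577, 487 and 484 counts, varied beyond counting noise (adjusted p = 0.0063 and 0.0069).

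The gene for the main IAP of the fly, *Diap1*, was at 69.0 ± 12.1 CPM per kb of exons (SD, n = 3), while the giant IAP gene *Bruce* was at 12.9 ± 2.03 CPM per kb (SD, n = 3). All 4 genes of this list were tested and 3 were called. *Diap2*, which acts in immune signalling, had the largest ratio among those called, with 658, 617 and 761 counts (adjusted p = 8.9e-04), and *Bruce* had 2374, 2114 and 2052 (adjusted p = 9.4e-07). Of 6 genes of the Bcl-2 family and of mitochondria, 3 were called. The somatic cytochrome c gene *Cyt-c-p* was the highest at 86.1 ± 9.0 CPM per kb (SD, n = 3), and *Buffy*, a Bcl-2 family gene, the lowest at 4.38 ± 0.99 CPM per kb (SD, n = 3). *Cyt-c-d*, known for its role in male germ cells, was highest in library 2, with 67, 106 and 71 counts (adjusted p = 0.015), and *Cyt-c-p* was highest in library 3, with 533, 606 and 781 (adjusted p = 1.3e-10).

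Of 9 genes of tumour necrosis factor and JNK signalling, which can induce *hid* and *rpr* in stressed tissue, 3 were called. Their levels ran from 13.0 ± 2.08 CPM per kb of exons (SD, n = 3) for the kinase gene *hep* to 42.6 ± 3.11 CPM per kb (SD, n = 3) for *Jra*, the fly Jun. The JNK phosphatase gene *puc* had 791, 1037 and 832 counts (adjusted p = 1.6e-07), and the ligand gene *egr* had 432, 346 and 343 (adjusted p = 0.0020).

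The levels of DNA damage checkpoint genes ran from 2.28 ± 0.47 CPM per kb of exons (SD, n = 3) for *mei-41*, the fly ATR kinase, to 31.6 ± 5.30 CPM per kb (SD, n = 3) for *grp*, a checkpoint kinase, and 3 of 8 were called. *tefu*, the fly ATM kinase, had 377, 326 and 301 counts (adjusted p = 0.021), and *grp* had 1115, 1036 and 949 (adjusted p = 0.0023). Genes of DNA end joining and recombination lay between 3.70 ± 0.20 (*Blm*) and 8.57 ± 0.92 (*Irbp*, for a subunit of the Ku complex that binds DNA ends) CPM per kb (SD, n = 3). Only *DNAlig4* of these 5 was called, with 187, 169 and 234 counts (adjusted p = 0.0093). The other gene of the list that holds *Corp*, *RnrL* for the large subunit of ribonucleotide reductase, was called and stood at 47.1 ± 8.21 CPM per kb (SD, n = 3), with 1418, 1300 and 1188 counts (adjusted p = 6.6e-05).

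Among other leucine zipper genes of stress responses, *Xbp1* was higher per kb of exons than *Xrp1*, at 269 ± 13.0 CPM (SD, n = 3), and it varied between libraries with 5635, 6172 and 6940 counts (adjusted p = 9.5e-28). *Atf3* had 520, 424 and 468 counts (adjusted p = 0.011), and 3 of the 4 genes tested were called. *crc*, the fly ATF4, named after its values were seen, was at 100.4 CPM per kb of all exons but at 379 CPM per kb of the 908 bp of exons outside other genes, above *Xbp1* and *Xrp1*. *slbo*, the lowest of the list at 2.94 ± 4.22 CPM per kb (SD, n = 3), had 221 counts in library 2 against 23 and 7 in libraries 1 and 3, and was not tested because of the 7. Of 10 genes of DNA fragmentation and engulfment, 4 were called. The adaptor gene *Crk* was highest at 80.5 ± 5.02 CPM per kb (SD, n = 3), and *Drep2*, of the caspase-activated DNase family, lowest at 1.23 ± 0.28 CPM per kb (SD, n = 3). *DNaseII*, for an acid nuclease that digests engulfed DNA, had 584, 514 and 650 counts (adjusted p = 8.6e-04), and the engulfment gene *Ced-12* had 311, 311 and 251 (adjusted p = 0.042).

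**Figure D5:**
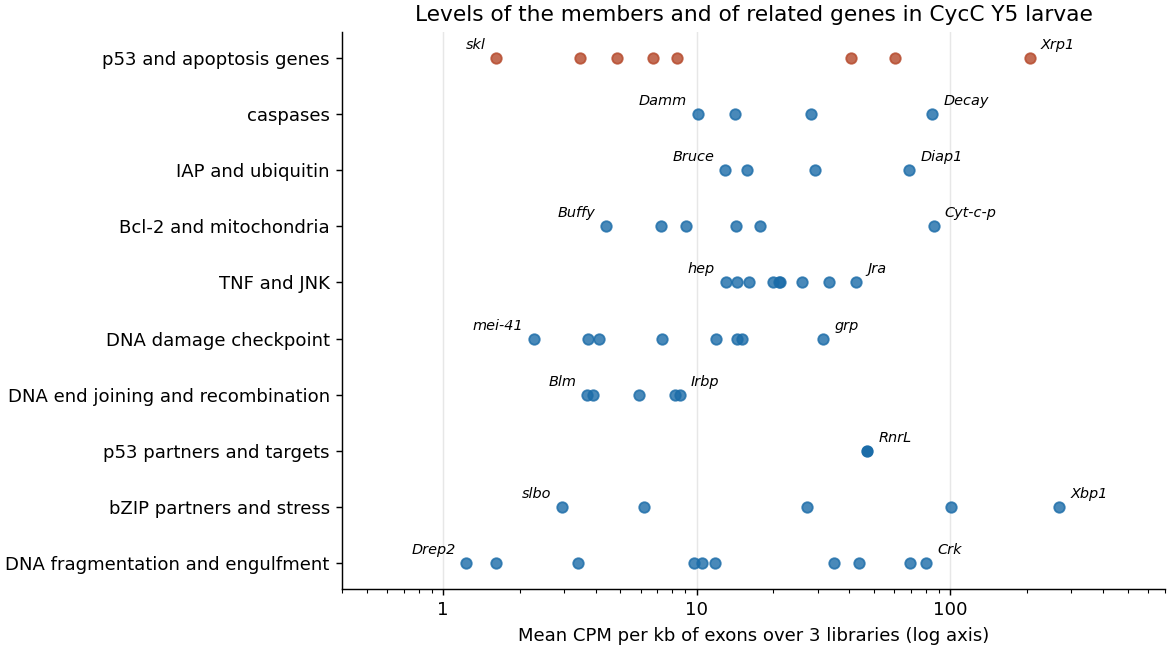
Mean CPM per kb of exons over 3 *CycC Y5* libraries (log axis), 1 point per gene, for the 8 members with counts in every library and for the related gene lists, with the highest and lowest gene of each named. *Xrp1*, at 206 CPM per kb, lies above the genes shown other than *Xbp1*, at 269 CPM per kb, on this scale, and genes listed at 0 are left out.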

How the data were processed

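The authors deposited whole-number read counts per gene and per transposon family, not normalized. Their processing notes name STAR and dm6. The counting program, strand setting and treatment of shared reads are not given in the sources used here. Transposon columns were read 1 cell to the right of their names. The columns of other libraries were not used. Symbols were found for 17865 of 17896 identifiers, and exons came from BDGP6.54.

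CPM (counts in 1000000) used the total of both tables, levels are mean and SD, and length is the union of annotated exons. A single genotype leaves the quasi-likelihood test of edgeR nothing to contrast. Homogeneity across libraries was therefore tested by chi-square, with expected counts in proportion to TMM library sizes, on both tables (at least 10 counts in every library, Benjamini-Hochberg adjusted over all features, threshold 0.05). Tagwise dispersions, the square of the coefficient of variation, were estimated in edgeR 4.0.16 or, as an alternative, DESeq2 1.42.0, under R 4.3.3. Other steps used Python 3.11.15, NumPy 2.4.6, SciPy 1.17.1, pandas 2.3.3 and matplotlib 3.10.9. Only the chi-square test and the edgeR coefficient of variation were tried on simulated data. Intervals and floors cover counting error only.

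Alternatives were other library scalings, filters, a threshold of 0.01, a pseudocount of 1, other lengths and each library left out. Members, lists and tests were chosen with earlier results of these data known. Of each list the text names the highest and lowest gene per kb of exons above 0 and up to 2 called genes with the largest ratio of highest to lowest library. *Ppp1r15* was not matched, and 1 gene of the lists is not reported here.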

Additional observations from a re-analysis of the deposited data

How the results depend on the processing

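No paired analysis was possible because only *CycC Y5* larvae are compared. DESeq2 size factors, the filters and a threshold of 0.01 gave the same counts of members called. With total counts 6 members varied over the 3 libraries, 5 differed between libraries 1 and 3 (50.6% of all features), and 6 between 2 and 3 (55.8%), as the median feature then has an offset between libraries. Without library 1, 3 members were called, beside 2960 of 10037 features. Without library 2 there were 2, beside 3172 of 9960 features, and without library 3 also 2, beside 1622 of 9979. When the 20 most counted features were left out of the total, which makes it smaller by construction, the level was 13.0 CPM for *p53*, 1260 for *Xrp1*, 9.57 for *rpr*, 2.85 for *skl*, 21.5 for *Dark*, 103 for *Dronc* and 148 for *Drice*. The coefficient of variation of *hid* ran from 0.0962 to 0.191 with a library left out, lowest without library 3, where that of the other members also fell. For *skl* it was 0.304 with DESeq2's dispersion (the causes were not tested). Of the ratios, *hid* to *p53* reversed per kb of listed span (-0.65) and of unshared exons (-0.23), *p53* to *Dark* per kb of listed span (-0.13), of unshared exons (-0.083) and without length (-0.72), and *rpr* to *hid* without length (-1.81), which follows from the lengths used. Unshared exons also moved *Dronc* to *Dark* (2.30), *Dark* to *skl* (2.36) and *p53* to *Xrp1* (-4.74) by over 1.5 times in fold. Per kb of listed span *Xrp1* to *Drice* was 0.45 and *rpr* to *hid* 2.50, beside 1.77 and 0.35 per kb of exons. A pseudocount of 1 and leaving out a library reversed none of the 10 ratios. At 0 to 28 counts, *grim* and *skl* allow no finer comparison.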
